A study of Saccharomyces cerevisiae with 67 samples.

Results

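The short H4K12ac regions were the 343 regions, of 1970 in all (17.4%), that the deposited list of Saccharomyces cerevisiae chromatin acetylated at lysine 12 of histone H4 gives as under 1500 bp long. They covered 379395 bp, or 5.09% of all the bases in regions. They were chosen by their length alone, so their length and the low number of genes each can hold are not results. In the study, budding yeast of strain BY4741, either the mip6D deletion mutant (lacking the RNA-binding protein Mip6) or wt, was kept in culture at 30ºC or heat-shocked at 39ºC for 20 or 120 minutes, and chromatin was precipitated with an antibody to H4K12ac. The 19 H4K12ac libraries in the sample labels comprised 11 from mip6D cells (4 at 30ºC, 3 after 20 minutes and 4 after 120 minutes at 39ºC) and 8 from wt cells (3, 1 and 4 at the same points). According to the methods, the authors merged the peaks of all samples into 1 list. Whether libraries besides these 19 went into it is not stated. That list holds a position for each region and neither a height, a count of reads nor a sample, so the depth behind a region is unknown here, no strain or time can be compared, and every value below is a count, a share or a median with no test.

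Histone acetyltransferases put acetyl groups on lysines of the histone H4 tail and deacetylases remove them, and in yeast the acetylated nucleosomes are found mainly around promoters and over the first part of genes. Yeast genes lie close together, so that neighbours may point the same way (tandem), away from each other and share an upstream stretch (divergent), or towards each other (convergent). In what follows a gene start is the first base of the start codon and a gene end the last base of the stop codon, for the 6002 nuclear protein-coding genes of the RefSeq annotation, and positions are counted from 1 on the R64 (sacCer3) build.

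The sequence around the gene start is shown first for the 3 shortest regions that held a start and no repeated sequence, since in these the start and both edges lie closest together. Each run is read along the gene from 250 bp before its start to 50 bp into it. Capitals mark the start codon and any match, on either strand, to the 5 short motifs counted further on. RRN11 (chrXIII:191718-192017, minus strand) encodes a subunit of the core factor that starts RNA polymerase I transcription, EXG1 (chrXII:728705-729004, plus strand) an exoglucanase of the cell wall, and GIN4 (chrIV:1465737-1466036, minus strand) a kinase that organises septins at the bud neck.
RRN11: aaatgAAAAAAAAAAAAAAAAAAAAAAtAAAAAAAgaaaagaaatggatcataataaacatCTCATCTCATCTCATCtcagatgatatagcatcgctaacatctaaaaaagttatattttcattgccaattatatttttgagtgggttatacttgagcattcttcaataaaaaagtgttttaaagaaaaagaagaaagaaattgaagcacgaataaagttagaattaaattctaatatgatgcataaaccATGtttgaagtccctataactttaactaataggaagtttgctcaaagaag
EXG1: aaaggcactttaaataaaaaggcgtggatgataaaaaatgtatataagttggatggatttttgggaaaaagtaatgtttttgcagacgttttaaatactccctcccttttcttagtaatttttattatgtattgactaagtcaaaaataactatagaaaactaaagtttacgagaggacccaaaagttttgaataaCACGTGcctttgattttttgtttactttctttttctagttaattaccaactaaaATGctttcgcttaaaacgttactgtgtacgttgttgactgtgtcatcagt
GIN4: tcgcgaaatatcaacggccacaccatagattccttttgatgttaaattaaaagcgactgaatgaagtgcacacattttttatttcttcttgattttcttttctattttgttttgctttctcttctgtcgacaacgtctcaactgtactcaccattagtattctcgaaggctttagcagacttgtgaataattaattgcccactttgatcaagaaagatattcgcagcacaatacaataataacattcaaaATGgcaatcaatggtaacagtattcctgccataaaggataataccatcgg
The region reached 191 bp before the RRN11 start and 334 bp past it, 69 and 556 bp for EXG1, and 172 and 462 bp for GIN4. In all 3, more of the region lay inside the gene than before it.

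The same window is given for the shortest and the longest gene that started in a short region, and for the transcription factor gene SKN7 as a gene of ordinary length. OST4 (chrIV:38237-38536, plus strand), the smallest subunit of oligosaccharyltransferase, is 111 bp long, whereas TOM1 (chrIV:1369540-1369839, plus strand), a ubiquitin ligase, is 9807 bp long. SKN7 (chrVIII:512482-512781, plus strand) encodes a regulator of the response to oxidative stress.
OST4: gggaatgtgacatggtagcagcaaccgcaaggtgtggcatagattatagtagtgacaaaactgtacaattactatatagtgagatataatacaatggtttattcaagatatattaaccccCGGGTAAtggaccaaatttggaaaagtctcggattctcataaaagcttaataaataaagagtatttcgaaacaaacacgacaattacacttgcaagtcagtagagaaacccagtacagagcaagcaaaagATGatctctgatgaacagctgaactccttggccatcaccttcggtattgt
TOM1: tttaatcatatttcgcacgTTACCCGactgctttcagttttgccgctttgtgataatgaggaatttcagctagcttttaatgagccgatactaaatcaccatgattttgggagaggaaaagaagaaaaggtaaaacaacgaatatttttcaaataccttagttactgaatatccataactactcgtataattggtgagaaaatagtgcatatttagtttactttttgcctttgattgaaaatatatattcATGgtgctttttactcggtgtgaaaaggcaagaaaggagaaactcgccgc
SKN7: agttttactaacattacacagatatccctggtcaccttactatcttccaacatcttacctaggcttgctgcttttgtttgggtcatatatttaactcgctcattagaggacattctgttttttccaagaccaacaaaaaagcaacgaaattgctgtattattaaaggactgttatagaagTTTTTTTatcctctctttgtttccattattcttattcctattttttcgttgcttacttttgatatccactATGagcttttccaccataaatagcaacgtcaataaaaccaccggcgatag
The regions reached 366 bp before and 827 bp past the OST4 start, 252 bp before and 531 bp past the TOM1 start, and 382 bp before and 708 bp past the SKN7 start. The whole of OST4 and only a small first part of TOM1 therefore lay in the region at their start. A TTACCCG match, the core of sites bound by the general factor Reb1, lay with its first base 130 bp before the OST4 start and 231 bp before the TOM1 start.

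Divergent starts came in both forms, and 1 pair of each is shown with the whole stretch between both genes. SEC63 (chrXV:806974-807273, minus strand), a subunit of the translocon of the endoplasmic reticulum, lay 247 bp from OSW1, a gene of spore wall formation on the other strand, and only the SEC63 start was in the region. CDC1 (chrIV:827332-827631, plus strand), needed for remodelling of GPI anchors, and SAS4, a subunit of the SAS histone acetyltransferase complex, had 226 bp between their starts, and both were in 1 region. CAT in capitals in the first 25 bases of each run is the start codon of the partner, read on the other strand.
SEC63: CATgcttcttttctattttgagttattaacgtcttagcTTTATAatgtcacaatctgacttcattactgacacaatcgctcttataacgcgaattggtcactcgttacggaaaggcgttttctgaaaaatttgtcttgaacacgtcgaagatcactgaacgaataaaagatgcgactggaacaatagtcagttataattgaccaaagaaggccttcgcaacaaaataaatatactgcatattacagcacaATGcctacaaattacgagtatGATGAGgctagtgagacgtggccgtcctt
CDC1: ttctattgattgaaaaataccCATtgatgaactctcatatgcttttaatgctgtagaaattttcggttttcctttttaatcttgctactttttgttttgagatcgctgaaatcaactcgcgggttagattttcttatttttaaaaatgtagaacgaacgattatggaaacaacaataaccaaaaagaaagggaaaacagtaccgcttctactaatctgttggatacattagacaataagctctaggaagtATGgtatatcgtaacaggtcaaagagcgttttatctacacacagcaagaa

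The lengths of the members gave the first view of the class. They ran between 504 and 1493 bp, the median being 1130 bp and the quartiles 951.5 and 1280.5 bp, against a median of 2835 bp over all 1970 regions. The counts per 100 bp were highest at 1000 to 1099 bp (70 regions) and 1100 to 1199 bp (62), were 29 and 39 in the 100 bp before and after 1500 bp, and were 70 again in both bins from 1800 to under 2000 bp. The number of gene starts held differed between these ranges. Regions with 1 start, whatever their length, had a median of 1476 bp (565 regions), those with 2 starts 2414.5 bp (510 regions) and those with 3 or more 5311.5 bp (826 regions). Just under the limit lay the regions at VTA1 and SWI6 (chrXII:517122-518613, 1492 bp), at KHA1 and TOK1 (chrX:253696-255188, 1493 bp) and at TOA1 and SLK19 (chrXV:711878-713370, 1493 bp). Just above it lay those at SET1 and MSH1 (chrVIII:349085-350585, 1501 bp), EFG1 and YGR273C (chrVII:1037821-1039325, 1505 bp) and YLR152C (chrXII:443838-445343, 1506 bp). SWI6 encodes a cofactor of the G1/S transcription factors, TOA1 the large subunit of TFIIA, and SET1 the histone H3 lysine 4 methyltransferase.

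**Figure D1:**
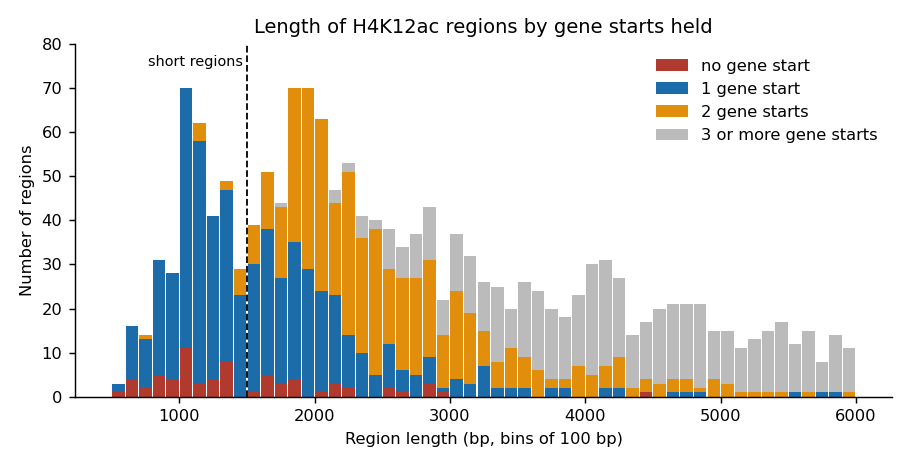
Number of H4K12ac regions in bins of 100 bp (vertical axis) by region length in bp (horizontal axis, up to 6000 bp), coloured by the number of gene starts held, with a dashed line at 1500 bp. Left of the line 288 of the 343 regions hold 1 start, 42 hold none and 13 hold 2, and the bar of 1000 to 1099 bp reaches 70 regions.

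Of the 5 shortest members, 4 held 1 start and no end, and 1 held an end alone. The shortest, of 504 bp (chrVIII:213974-214477), covered the start of YHR054C, an uncharacterized gene, and 87.0% of its 50-base words occurred elsewhere in the genome, so reads there could have come from other copies. The second, of 518 bp (chrXII:975429-975946), held the end and not the start of SPP382, a splicing factor gene. RRN11 (526 bp, chrXIII:191433-191958), EXG1 (626 bp, chrXII:728886-729511) and DDR48 (627 bp, chrXIII:608484-609110), which responds to DNA damage and other stress, each had their start in the region and their end outside it. All 5 lay on arms outside the 30 kb at the chromosome ends.

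Of the 343 members, 301 (87.8%) held a gene start, whereas 96.5% of all regions and 96.2% of the next length class, the 692 regions from 1500 to under 3000 bp, did. Exactly 1 start was found in 288 (84.0%), 2 in 13 (3.79%) and none in 42 (12.2%). A gene end was in 112 members (32.7%), against 75.6% of all regions and 66.6% of the next length class. Since a longer region must meet more gene boundaries, the same counts were set per base. These rates are tied to the length limit too, since a single start in a region under 1500 bp already gives a high rate. The members had 8.28 starts per 10 kb, against 7.64 in the next class and 7.24 in all regions, and 3.69 ends per 10 kb, against 4.54 and 5.41. There were 2.24 starts for each end in the members, 1.68 in the next class and 1.34 in all regions. The commonest arrangement, in 201 members (58.6%), was 1 start and no end. Another 87 held 1 start with 1 or more ends, 19 held an end without a start, and 23 held neither.

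In the 288 members with 1 start the region lay mostly over the gene. The start was on the upstream side of the centre in 260 (90.3%), by a median of 237.25 bp (quartiles 136 and 309.9 bp). The region reached a median of 302 bp before the start (quartiles 231.25 and 412.25 bp) and 776.5 bp past it (quartiles 644.5 and 893.75 bp), so that a median of 71.8% of it was downstream. The downstream edge was 500 to 1000 bp from the start in 234 members (81.2%), and the edge before the gene was within 500 bp in 250 (86.8%). EXG1, with 69 bp before the start and 556 bp past it, and POM152, a membrane protein of the nuclear pore with 925 bp before and 442 bp past its start, are examples of a region mostly past the start and of one mostly before it. The sum of both distances is bounded by the length limit, and the split between them is tied to it as well. Where the outermost gene pointed into the region, the median distance before its start was 302 bp in the members and 785.5 bp in the next class. Where it pointed outwards, the medians past the start were closer, at 769 and 832 bp.

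**Figure D2:**
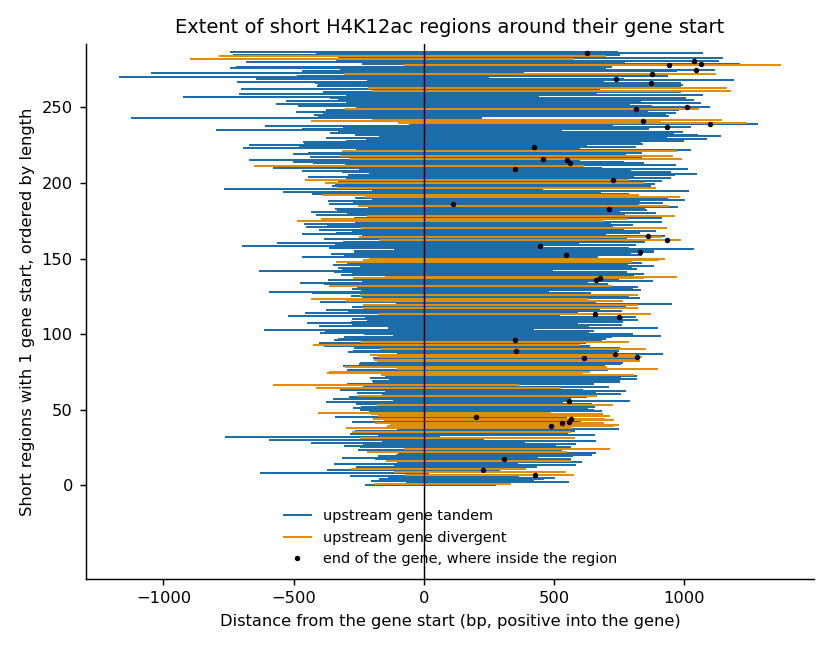
Extent of each of the 288 short regions with 1 gene start, 1 line per region ordered by length, in bp from the start (horizontal axis, positive into the gene). Lines are coloured by the direction of the upstream gene and black points mark a gene end inside the region. Most lines run further to the right of 0 than to the left, with medians of 776.5 and 302 bp.

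The distance between the start and the downstream edge, which the length limit keeps under 1500 bp, was compared between genes of different length. It had a median of 818.5 bp in the 48 genes under 1000 bp, of which 39 ended inside the region, 799 bp in the 53 genes from 1000 to under 1500 bp, 777 bp in the 103 up to 2500 bp, 755 bp in the 57 up to 3500 bp, and 584 bp in the 27 genes of 3500 bp or more. The quartiles of neighbouring length groups overlapped, with the longest genes at 515 and 788.5 bp and the shortest at 721.75 and 889 bp. The share of the gene covered had medians of 100% in the shortest group and 12.8% in the longest. In VPS13 (9435 bp, a lipid transfer protein at membrane contacts) the region reached 507 bp into the gene and in UTP20 (7482 bp, a subunit of the small-subunit processome) 628 bp. Longer regions ended at a like distance past their outermost start. Where the outermost gene pointed out of the region, the edge was a median of 769 bp from its start in the members (309 edges), 832 bp in the next class (958 edges) and 871 bp in regions of 3000 bp or more (1389 edges). Where it pointed inwards, the edge lay a median of 302 bp before the start in the members and 785.5 and 670 bp in the longer classes.

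**Figure D3:**
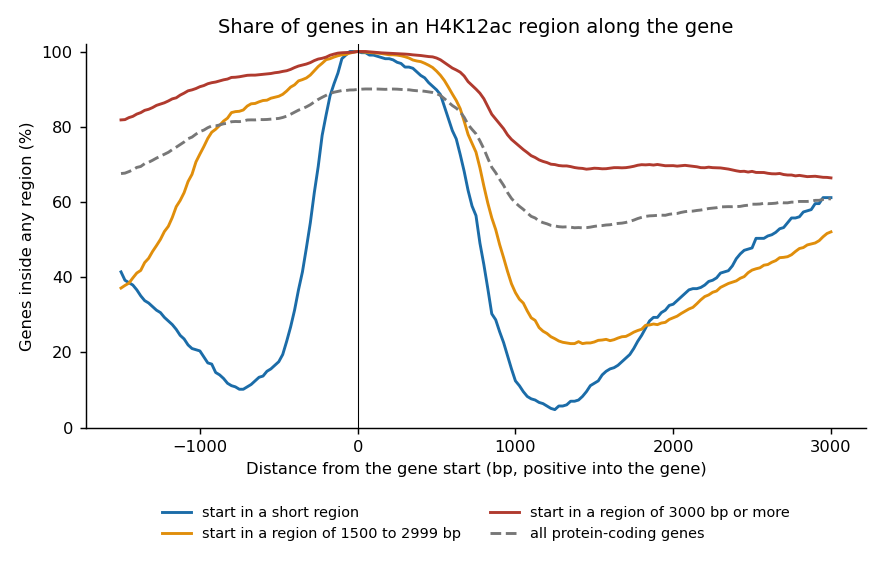
Share of genes (%) whose base at a given distance from the start (bp, horizontal axis, also past the end of short genes) lay in any H4K12ac region, for genes starting in a short region, in regions from 1500 to under 3000 bp, in regions of 3000 bp or more, and for all 6002 genes. For genes of short regions the share is 17.5% at 500 bp before the start, 89.8% at 500 bp past it and 12.4% at 1000 bp past it.

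Coverage was also read along the gene, where the length limit itself makes the shares of short regions low at a distance from the start. At 500 bp before the start 17.5% were in any region, against 88.1% of genes starting in the next class and 82.2% of all genes. At 500 bp past the start the shares were 89.8%, 94.8% and 88.8%, and at 1000 bp past it 12.4%, 35.9% and 59.8%. Further on the members' share rose again, to 61.1% at 3000 bp, as neighbouring regions were met, against 52.0% in the next class and 60.8% over all genes. The own end of the gene lay outside any region in 177 of the 288 (61.5%), in the same region in 44 and in another region in 67 (23.3%). Over all 6002 genes, 4034 ended in a region. The uncovered stretch on the downstream side of the member, a median of 1792.5 bp, was the larger in 180 of the 287 with a neighbour on both sides (62.7%), against 1323 bp on the upstream side.

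In all, 314 of the 6002 genes (5.23%) started in a short region. They had a median length of 1764 bp (quartiles 1158.75 and 2646.75 bp), against 1527 bp for genes starting in the next class and 1200 bp for all genes. Genes under 1000 bp were 20.4% of them, 31.2% of genes starting in the next class and 40.2% of all genes, while genes of 3500 bp or more were 8.60% of them, 9.38% of genes starting in the next class and 5.62% of all genes. The shortest were OST4 (111 bp), YKL096C-B (150 bp) and COX26 (201 bp, a small protein bound to cytochrome c oxidase). The longest were TOM1, VPS13 and UTP20. Of all genes, 53 were wholly inside a short region.

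A tandem gene upstream and a convergent gene downstream were the commonest surroundings of these genes. The gene upstream pointed the same way for 219 of the 314 (69.7%), against 42.1% of genes starting in the next class and 48% of all genes. The gene downstream was convergent for 213 (67.8%), against 58.4% in the next class and 51.9% of all genes. Both held for 148 (47.1%), against 22.5% and 23.8%. Read the other way, 10.4% of the 1427 genes with a tandem gene upstream and a convergent gene downstream started in a short region, 4.95% of the 1434 genes tandem on both sides, 3.90% of the 1668 genes with a divergent gene upstream and a convergent gene downstream, and 2.08% of the 1440 genes with a divergent gene upstream and a tandem gene downstream. The tandem neighbour lay a median of 454 bp upstream, against 400 bp over all genes. The shares by upstream gene are tied to the length limit, since a region over both genes of a divergent pair is seldom under 1500 bp. The part of the limit in the shares by downstream gene was not tested.

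Gene length and orientation went together. Among genes with a tandem gene upstream, the share starting in a short region was 3.41% under 500 bp, 3.10% from 500 to under 1000 bp, 6.10% up to 1500 bp, 9.78% up to 2000 bp, 12.0% up to 2500 bp, 18.6% up to 3500 bp and 13.1% at 3500 bp or more. Among genes with a divergent gene upstream it stayed between 1.78% and 4.80% over the same groups. In each group of gene length the tandem share was the larger. A rise with gene length was not particular to short regions. The share starting in the next class was 14.2% under 500 bp and 25.6% at 3500 bp or more for tandem genes. For divergent genes it was 14.2% and 37.9%. The split by orientation is thus tied to the length limit here too.

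**Figure D4:**
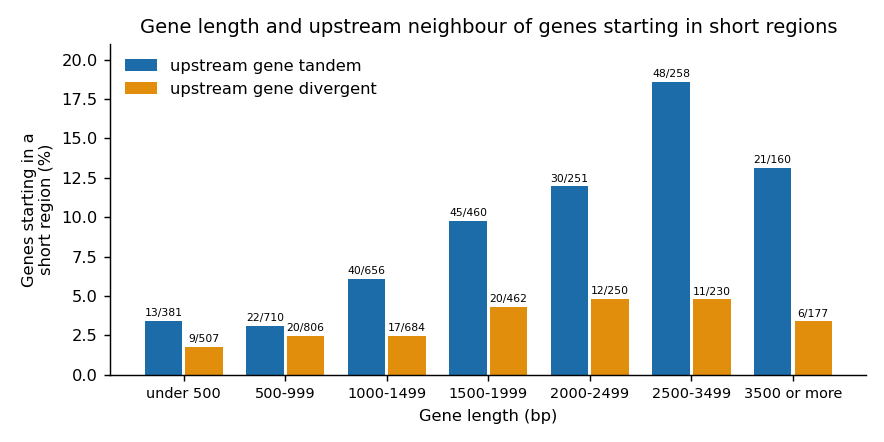
Share of genes (%) starting in a short region by gene length in bp (horizontal axis) and by the direction of the upstream gene, with the number of such genes over the number of genes above each bar. The bar of tandem genes is the higher in every group and reaches 18.6% from 2500 to under 3500 bp.

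For the 216 members with 1 start and a tandem gene upstream, that gene ended in no region in 157, in the member itself in 53 and in another region in 6. It started in a region in 192 (88.9%). Of all 6002 genes, 5396 started and 4034 ended in a region. The member reached a median of 326 bp before the start where the upstream gene was tandem and 240 bp where it was divergent, with a median distance between the genes of 457.5 and 934 bp. Downstream the medians were 770.5 and 792 bp.

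In the 72 members with 1 start and a divergent gene upstream, the start of the partner was left out. It was in no region in 43 pairs, which lay a median of 664 bp apart (247 to 2260 bp). For the other 29 members it was in another region, with a median of 1355 bp between the genes (942 to 3758 bp). These 29 count 8 pairs from both sides. Between the edge of the member and the partner's start lay a median of 354 bp where the partner was in no region. Of these 43 partners 27 had a gene name, and 5 were Ty genes. A gene name was held by 352 of all 606 genes starting in no region (58.1%) and by 87.6% of all genes. Of all 1543 divergent pairs in the genome, 1287 (83.4%) had both starts in 1 region. The partners without a region included, chosen after their values were seen, OSW1, SPO16, SPO74, SPO75, MEK1 and LDS1, which act in meiosis or spore formation, the mating gene PRM6 beside PRP39, and POX1 and POT1 of fatty acid oxidation beside CHC1 and BNR1. Others were of widely expressed kinds, such as the ribosomal protein gene RPL11A beside PRE2, and the glycolytic genes CDC19 beside CYC3 and PFK2 beside YMR206W. Of the genes in the member at these pairs, SEC27 and CHC1 encode coat proteins of vesicles, ORC3 a subunit of the origin recognition complex, PRE2 a catalytic subunit of the proteasome and RPL37B a ribosomal protein. Of the meiosis and sporulation list, 4 genes were among the 43 partners, and 22 of its 47 genes had their start in no region, against 606 of all 6002 genes. In 6 of the 43 the 200 bp around the partner's start held repeated sequence, and the part of this in the missing region was not tested. In 16 of the 29 other cases the partner's region was itself short, which made 8 pairs of short regions facing away from each other, such as CLN2 and BBP1 (1110 bp apart) and SWI4 and LSM4 (1355 bp apart). CLN2 encodes a G1 cyclin and SWI4 the DNA-binding subunit of its activator SBF.

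**Figure D5:**
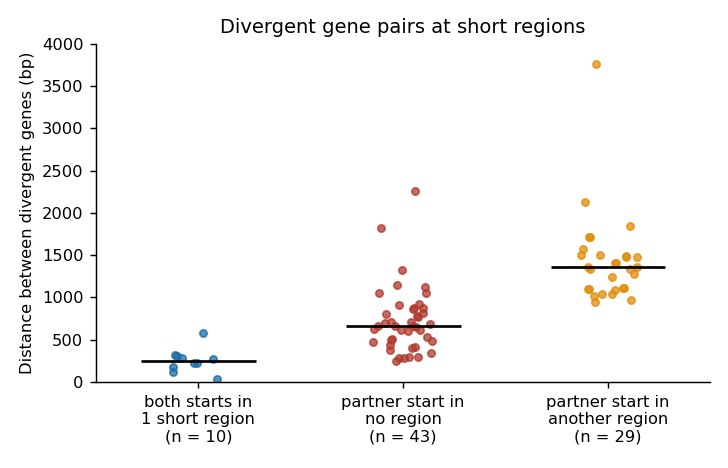
Distance in bp between the starts of divergent genes (vertical axis) at short regions, 1 point per pair or member, with black bars for medians. The 10 pairs with both starts in 1 short region, the 43 members whose partner was in no region and the 29 whose partner was in another region are plotted from left to right, and the medians of the second and the third group are 664 and 1355 bp.

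Both starts fell in 1 short region for 13 members, of which 10 were divergent pairs with no overlap, whose starts were 31 to 577 bp apart (median 248.5 bp). The 5 shortest were CUB1 with YPL261C (774 bp, chrXVI:49064-49837), CPP2 with YDR209C (1129 bp, chrIV:870699-871827), MRPL19 with YNL184C (1150 bp, chrXIV:291891-293040), CIN5 with YOR029W (1163 bp, chrXV:383589-384751) and MDY2 with SHR5 (1198 bp, chrXV:108122-109319). MRPL19 encodes a protein of the mitochondrial ribosome, MDY2 a factor that inserts tail-anchored proteins into membranes, and SHR5 a subunit of the Ras palmitoyltransferase. In 4 of these 5 the second gene has only a systematic name, and in the CUB1 and CPP2 pairs the genes overlap on opposite strands. The edges of divergent pairs were a median of 602 bp from the start, with a range of 63 bp past the BDF2 start to 1214 bp past the CWP2 start. In MDY2 and SHR5 the region reached 774 bp past the MDY2 start, which is beyond the end of that gene of 639 bp, and 143 bp past the SHR5 start, whereas in SAS4 and CDC1 it reached 562 and 642 bp past the starts.

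The 42 members without a start fell into 3 kinds. In 19 the region held the end of a gene, in 6 it lay inside 1 gene, and 17 touched no protein-coding gene. The share inside 1 gene was 1.75%, against 0.434% of the next class and 0.457% of all regions. The share touching no gene was 4.96%, against 0.723% and 1.12%. Members were themselves 6 of the 9 regions inside 1 gene and 17 of the 22 touching none. A shorter region fits more easily inside or between genes, so both shares are tied to the length limit. Among the 6 regions inside 1 gene, the 5 longest host genes were HAP1 (4509 bp, heme-dependent transcription factor), TAF2 (4224 bp, subunit of TFIID), ASK10 (3441 bp), SPC97 (2472 bp, spindle pole component) and HOP1 (1818 bp, protein of the meiotic chromosome axis). The region in HAP1 (chrXII:650186-650824) began 3771 bp past the gene's start and that in TAF2 (chrIII:202358-203441) 1956 bp past it. The regions at ASK10 (chrVII:681090-682127) and SPC97 (chrVIII:449625-450797) stopped 8 and 9 bp short of the gene's end. Among the genes whose end lay in a member without a start were, chosen after their values were seen, the hexose transporter genes HXT1, HXT13, HXT17 and GAL2. The flocculin gene FLO11 and the sporulation genes SSP1 and SPO77 were others. The start of HXT1 lay in another member, of 901 bp.

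Chromosome ends and repeats made up a larger share of the surroundings of members without a start, a difference that was not tested. Of the 42, 10 (23.8%) were in the last 30 kb of a chromosome, against 11 of 301 (3.65%). Repeated 50-base words were held by 10 (23.8%), against 12 (3.99%), and a Ty element or long terminal repeat lay within 500 bp of 10 (23.8%), against 16 (5.32%). None of these 3 features, a noncoding gene or a replication origin was found at 20 of the 42. The nearest start was a median of 763.5 bp away (22 to 3371 bp). The part of short-read mapping in repeated sequence in these regions was not tested.

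The spacing of short regions was close to that of all regions. The nearest region lay a median of 1006 bp away (quartiles 680.5 and 1694 bp), against 1083.5 bp in the next class and 1059.5 bp over all regions. The adjacent regions had a median length of 2877 bp, against 2834 bp over all. Of 681 neighbours of members, 114 (16.7%) were short, against 17.4% of the neighbours of all regions, and 238 members (69.4%) had no short neighbour. The others formed 40 runs of 2, 7 runs of 3 and 1 run of 4. The run of 4 (chrXVI:132599-139546) held regions of 1253, 1084, 1247 and 1191 bp at FLC1, FLC1 again at its end, PCL8 and SAR1. FLC1 encodes a flavin carrier, PCL8 a cyclin of the Pho85 kinase and SAR1 the GTPase of COPII coats. The runs of 3 lay at SRO77, PKC1 and SEA4 on chromosome II, at SCW4, PXR1 and YOR1 and near COS6 on chromosome VII, at GWT1, DPB11 and SIP4 on X, at YLL032C, GPI13 and FRA1 and at GAL2, SRL2 and EMP70 on XII, and at CLN2, BBP1 and HFI1 on XVI. By chromosome, the members were between 2.86% of the regions (1 of 35, chromosome VI) and 29.4% (10 of 34, chromosome I).

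Of all 6002 genes 5082 started in a longer region and 606 in none, and each group of genes was counted beside this. Of 137 cytosolic ribosomal protein genes, 2 started in a short region, RPL37B and RPL17A, and 133 in a longer one. The mitochondrial ribosome had 1 of 69 (MRPL19), the proteasome 1 of 32 (PRE2), the nuclear pore 1 of 31 (POM152), glycolysis and fermentation 1 of 22 (PYK2, the minor pyruvate kinase, with 14 others in longer regions and 7 in none), and the heat-shock proteins 1 of 20. That gene was HSC82, which encodes the constitutive Hsp90, and its region of 643 bp (chrXIII:632217-632859) reached 138 bp before and 504 bp past the start. Meiosis and sporulation had 1 of 47, the recombinase gene DMC1, while the 18 aminoacyl-tRNA synthetase genes and the 10 trehalose genes had none. The stress transcription factors had 5 of 12, or 41.7%, against 5.23% of all genes, with 7 in longer regions. This small list was chosen with earlier results of these data known, so the share is a description only. Its genes had a median length of 1918.5 bp, against 1200 bp for all genes, and the part of gene length was not tested.

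The 5 factor genes differed in how their region lay. SKN7, already shown, had 382 bp of its region before the start and 708 bp past it. CIN5, a Yap family factor in salt tolerance, shared its region with YOR029W, and the region reached 831 bp into CIN5. SKO1, which acts in osmotic stress, had 694 bp before and 599 bp past the start (chrXIV:320760-322053). GIS1, which acts on nutrient limitation, had 670 and 626 bp (chrIV:636469-637765), and RPN4, the activator of proteasome genes, had 1172 and 250 bp (chrIV:416458-417880). In SKO1, GIS1 and RPN4 more of the region was before the start than after it, which held for 27 of the 288 members with 1 start. MIP6, deleted in the mutant, and PES4, a related RNA-binding protein gene, had no short region. The start of MIP6 lay in a region of 17063 bp (chrVIII:122587-139649) and that of PES4 in one of 3312 bp (chrVI:198633-201944).

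The promoters, read from 250 bp before to 50 bp after the start, were searched on both strands for short motifs. TTACCCG was in 38 of the 314 promoters of short regions (12.1%), against 7.82% in the next class and 7.08% of all 6001 promoters. TATAAA, the core of the TATA box, was in 48.1%, against 38.3% and 45.2%. A run AAAAAAA (or TTTTTTT) was in 52.9%, against 48.7% and 49.9%. GATGAG, the core of the PAC element of ribosome biogenesis genes, was in 19.7%, against 19.6% and 20.4%, and CACGTG, bound by Cbf1, in 3.50%, against 3.13% and 2.92%. Matches to different motifs were counted separately even where they overlapped, and a match is not a bound site. In the sequences given above, CACGTG lay 54 bp before the EXG1 start, while the GIN4 window held no match.

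In base composition the members had a median G+C content of 37.3%, against 38.0% in the next class and 38.1% over all regions. Repeated 50-base words were in 22 members (6.41%), against 17.2% of all regions, and within 500 bp outside the region in 53 (15.5%), against 12.2%. A replication origin was touched by 20 members (5.83%), against 6.65% of the next class and 12.0% of all regions, and a tRNA gene by 5 (1.46%), against 8.53% of all regions. These shares grow with the bases a region holds. Per Mb, 52.7 members touched an origin, against 30.5 regions in the next class and 31.8 over all regions, so the order was reversed. For tRNA genes the values were 13.2, 19.9 and 22.5. A region was counted once however many it touched, which lowers the rates of longer regions. An overlap of 1 base was enough, which raises the rates of short ones. The order of origins per Mb is thus tied to the length limit. No member touched a centromere. The last 30 kb of the chromosomes held 21 members (6.12%), against 5.64% of all regions.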

How the data were processed

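Chromatin was precipitated with an H4K12ac antibody from 19 libraries, labelled as biological replicates 1 to 4, of which the methods say that 1 and 2 were grown on 1 day and 3 and 4 on another. Per the study's methods, the authors trimmed adapters with Cutadapt, aligned 50-base reads by Bowtie2 to the sacCer3 genome, ran MACS2 for each H4K12ac library with no H4 library as control, and merged the peaks of all libraries with bedtools. Versions are not given in the sources used here. A merged region is at least as long as each peak in it, so a short region was short in every library that had a peak there. The deposited list gives positions in other units than levels (bp), and its deposited score is 0 in all 1970 rows and was not used. The count tables, the RNA-seq and the H4 libraries were not analysed here.

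The list was read with Python 3.11.15, NumPy 2.4.6 and pandas 2.3.3, drawn with Matplotlib 3.10.9, and placed on the RefSeq R64 genome and annotation, of which the 16 nuclear chromosomes hold 6002 protein-coding genes. A start or end was held when its base lay in the region. Repeats were words of 50 bases found more than once on either strand. No RefSeq promoter table was used here, so promoters were read from the genome. The placement was checked on made-up genes and regions of known layout.

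Members, the 10 gene lists and the motifs were chosen with earlier results of these data known. Genes were named at the 5 shortest members, the 3 on each side of the limit, the 5 with the most starts, the 5 in the longest host genes, the longest runs, the 3 shortest and 3 longest genes, up to 4 per list (shortest regions first), and MIP6 and PES4. For the stress factors all 5 are named, and GIN4, SEC63, CDC1 and genes in other sentences on pairs were chosen after their values were seen. Shares carry no test, since regions of 1 list are not replicates. In alternatives the length limit, the window around starts, the gene set and the gap for joining regions were changed 1 at a time, and a share was called moved outside its 95% Wilson interval, a median outside 1 SD of the members and a count beyond 1.5 times.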

Additional observations from a re-analysis of the deposited data

How the results depend on the processing

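Over 57 alternative settings of 9 results, 47 values stayed within their stated spread and 10 moved. For medians the spread was that of single members, which is wide, so a median staying within it says little about stability. It ran from -81.4 to 2093.4 bp around the median distance to the nearest region, 1006 bp. Around the median gene length of 1764 bp it ran from 395.1 to 3132.9 bp. No median moved. The Wilson intervals of shares served as a yardstick only, since regions are not replicates. With a limit of 1200 bp there were 224 regions, 22.8% with a gene end and 76.3% without a short neighbour, and with 2000 bp there were 617, 91.1% with a start, 45.4% with an end and 48.5% without a short neighbour. The share of genes with a tandem gene upstream was 53.8% at that limit. Counting only genes with a gene name gave 83.7% with a start, and asking for 100 bp inside the region on each side gave 21.9% with an end. A higher limit admits longer regions and makes more neighbours count as short, and for the other settings the cause was not tested. No paired analysis was possible because regions come from peaks merged over every library, without replicates. Leaving out a library or raising the peak threshold could not be done either. The depth per region is unknown here, so a region missing from the list may lie under the threshold rather than be free of the mark.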
